A study of Mus musculus with 3 samples.

Results

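The genes of the CD3 chains (Cd3g, Cd3d, Cd3e and Cd247) and of pre-T-cell receptor alpha (Ptcra) were read in lists of peaks of H3K27ac, the acetylated lysine 27 of histone H3 that marks promoters and enhancers in use. The 5 genes were taken by name at their RefSeq positions, out of 21887 protein-coding genes, and each gene was found. Cd3g, Cd3d and Cd3e lie side by side on chromosome 9 and are treated as 1 locus, and they were set against Cd247 on chromosome 1 and Ptcra on chromosome 17. The mark was mapped by chromatin immunoprecipitation with sequencing (ChIP-seq) of thymocytes that lack CD4 and CD8 (double-negative), sorted from wild-type C57BL/6J mice aged 5 to 7 weeks. Per the labels the sorted cells were CD25+ and CD44- or CD44+, and no treatment was given. There were 2 H3K27ac replicates and 1 input sample. The input was not analysed here, and the values have no background beside them. Nothing states whether the replicates came from separate mice, and with 1 group of 2 samples no difference was tested.

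The CD3 chains are the signalling parts of the T cell receptor. CD3 epsilon pairs with CD3 gamma and with CD3 delta, CD3 zeta pairs with itself, and their cytoplasmic tails carry the tyrosine motifs (ITAMs) that the kinase Lck phosphorylates. Before the alpha chain gene is rearranged, the pre-T-cell receptor alpha chain takes the place of alpha beside a newly made beta chain, and signals of this pre-TCR through CD3 let double-negative cells go on to the CD4+ CD8+ stage.

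The promoter sequences of the 5 genes are shown first, since the position of the peaks relative to them differed from gene to gene. Each is the RefSeq window from 250 bases before to 50 bases after the start (build GRCm38.p6, the assembly of mm10), read 5′ to 3′ on the strand of the gene, so that base 251 is the first of the transcript. Capitals mark the E-boxes CAGCTG and CACCTG (or CAGGTG, its reverse complement), letters that E proteins can bind, and GGAAGT (or ACTTCC), a core that Ets factors can bind. Both strands were searched and no marked motifs overlapped.
Cd3g, chr9:44980382-44980681, minus strand: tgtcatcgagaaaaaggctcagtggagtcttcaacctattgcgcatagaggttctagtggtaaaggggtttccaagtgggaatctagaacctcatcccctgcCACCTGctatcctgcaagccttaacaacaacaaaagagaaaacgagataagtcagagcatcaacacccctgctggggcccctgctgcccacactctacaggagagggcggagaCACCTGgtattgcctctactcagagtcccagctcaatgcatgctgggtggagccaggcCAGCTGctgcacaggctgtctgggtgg
Cd3d, chr9:44981536-44981835, plus strand: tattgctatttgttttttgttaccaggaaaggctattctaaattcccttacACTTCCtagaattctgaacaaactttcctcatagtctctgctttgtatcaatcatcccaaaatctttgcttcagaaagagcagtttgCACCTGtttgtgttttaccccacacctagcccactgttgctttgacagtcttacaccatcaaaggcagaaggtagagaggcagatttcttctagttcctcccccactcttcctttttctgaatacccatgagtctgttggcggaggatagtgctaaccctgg
Cd3e, chr9:45009562-45009861, minus strand: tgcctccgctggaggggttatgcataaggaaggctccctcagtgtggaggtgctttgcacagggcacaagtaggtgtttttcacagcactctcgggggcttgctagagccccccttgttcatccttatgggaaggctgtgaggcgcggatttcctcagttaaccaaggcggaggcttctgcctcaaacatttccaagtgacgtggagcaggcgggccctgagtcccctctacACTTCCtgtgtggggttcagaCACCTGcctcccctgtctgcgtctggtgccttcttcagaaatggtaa
Cd247, chr1:165788431-165788730, plus strand: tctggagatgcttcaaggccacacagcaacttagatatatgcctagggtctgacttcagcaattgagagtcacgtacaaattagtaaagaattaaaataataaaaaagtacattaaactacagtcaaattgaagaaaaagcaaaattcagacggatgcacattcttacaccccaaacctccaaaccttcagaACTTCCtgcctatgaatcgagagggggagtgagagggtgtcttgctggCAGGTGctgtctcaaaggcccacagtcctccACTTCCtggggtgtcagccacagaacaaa
Ptcra, chr17:46763663-46763962, minus strand: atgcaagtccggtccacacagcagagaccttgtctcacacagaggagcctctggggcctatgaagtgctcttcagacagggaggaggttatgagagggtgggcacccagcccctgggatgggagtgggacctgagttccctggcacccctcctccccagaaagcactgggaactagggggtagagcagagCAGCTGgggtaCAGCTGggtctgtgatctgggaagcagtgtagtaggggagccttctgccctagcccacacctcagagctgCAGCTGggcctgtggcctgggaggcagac

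The windows had few CpG dinucleotides. Cd3d and Ptcra held 1 each, Cd247 held 3, Cd3g held 4 and Cd3e held 8, against a median of 13 over the 21263 windows of protein-coding genes. G and C made up 42.3% of the Cd3d window, 43.7% of that of Cd247, 54% of that of Cd3g, 56.7% of that of Cd3e and 61.7% of that of Ptcra, against a median of 56.3%. The low CpG count of Ptcra therefore came with a GC content above that median. All 5 windows held at least 1 of the marked E-boxes, which 31.9% of all windows did. Ptcra held CAGCTG 3 times, beginning 60 and 49 bases before the start and 21 bases after it, and 35 windows (0.165%) held it 3 times or more. Cd3g held CACCTG at 2 places and CAGCTG once, and the other 3 genes held 1 CACCTG or CAGGTG each. The Ets core was found 2 times at Cd247 and once each at Cd3d and Cd3e, and 24.8% of all windows held it. TGTGGT (or ACCACA), a core that Runx factors can bind, was in none of the 5 windows and in 15% of all. CTTTGA (or TCAAAG), a core that TCF-1 and LEF-1 can bind, was found 2 times at Cd3d and once at Cd247, and in 14.4% of all windows. These are matches of letters, and no binding was measured.

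H3K27ac peaks were found near the starts of all 5 genes in replicate 1 (beside 26.4% of all protein-coding genes) and of 4 in replicate 2 (beside 23.7%). Within 1 kb of the RefSeq start, Cd3g, Cd3d, Cd3e and Cd247 had a peak in each replicate, and Ptcra had one in replicate 1 alone. The 4 genes with a peak in both replicates compare with 18.2% of the 17492 protein-coding genes that have such a start, and with 16.1%, 19.6% and 19.1% of those on chromosomes 9, 1 and 17. The same 4 genes had a peak inside the gene in both replicates, beside 19.9% of all genes. Windows poor in CpG were called far less often. Of the 8731 windows with at most 8 CpG, the highest count among the 5 genes, 254 (2.91%) had a peak of each replicate within 1 kb of the start, against 28.4% of the windows with more. With any annotated gene end in place of the start, 3 genes (Cd3g, Cd3d and Cd3e) had a peak of each replicate, beside 16.8% of 21887 genes. By gene ends each replicate alone gave 4 genes (beside 25.1% in replicate 1 and 22.2% in replicate 2), and either gave all 5 (beside 30.5%). Cd247 is not among the 3: its annotated span begins 8729 bp upstream of the start in the promoter table, and the peaks of both replicates lay near the start. Cd3g and Cd3d share a peak in replicate 1, so they are not independent in that replicate.

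**Figure D1:**
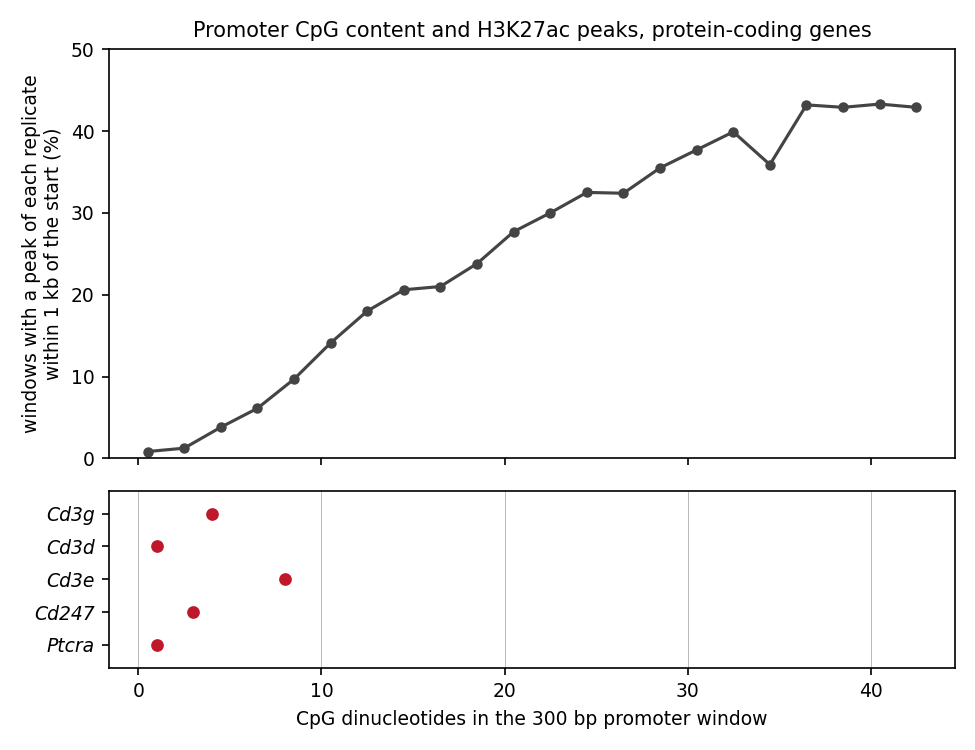
Upper panel: percent of promoter windows of protein-coding genes with an H3K27ac peak of each replicate within 1 kb of the start, by CpG count of the 300 bp window in bins of 2 counts (bins of at least 200 windows). Lower panel: CpG counts of the 5 genes, which lie between 1 and 8, at the left end of the curve where few windows were called.

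At the Cd3 locus each replicate had wide peaks at or near the starts of Cd3g and Cd3d, but over the locus the peaks of the replicates barely coincided. Cd3g and Cd3d are transcribed away from each other, with starts 1355 bp apart. In replicate 1 a single peak of 1954 bp ran across both starts (9, 44980055 to 44982008) and covered all 300 bp of the Cd3g window and of the Cd3d window. In replicate 2 a peak of 1811 bp began just inside the Cd3d window and ran into the gene (44981538 to 44983348), covering 298 bp of that window. A second replicate 2 peak of 1921 bp lay inside Cd3g, 506 bp downstream of its start (44978005 to 44979925), and left the Cd3g window uncovered. The bp under peaks of both replicates at this gene pair were 471, all over the Cd3d start (44981538 to 44982008). Thus the letters printed above for Cd3d lay under peaks of both replicates almost in full, and those for Cd3g under a peak of replicate 1 alone.

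At Cd3e, the chain that pairs with both gamma and delta, the peaks of the replicates met only at their edges. The replicate 1 peak of 2031 bp lay inside the gene and ended 82 bp downstream of the start (45007499 to 45009529), covering none of the promoter window. The replicate 2 peak of 543 bp lay over the start (45009498 to 45010040) and covered all 300 bp of the window. They overlapped by 32 bp. A further replicate 1 peak of 960 bp lay inside Cd3d (44984687 to 44985646), 2901 bp downstream of its start, with no replicate 2 peak over it. Outside the 3 genes, the 25 kb on either side held 1 peak, of replicate 1, inside the neighbour Ube4a, a ubiquitin ligase gene (2047 bp, 44954061 to 44956107).

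**Figure D2:**
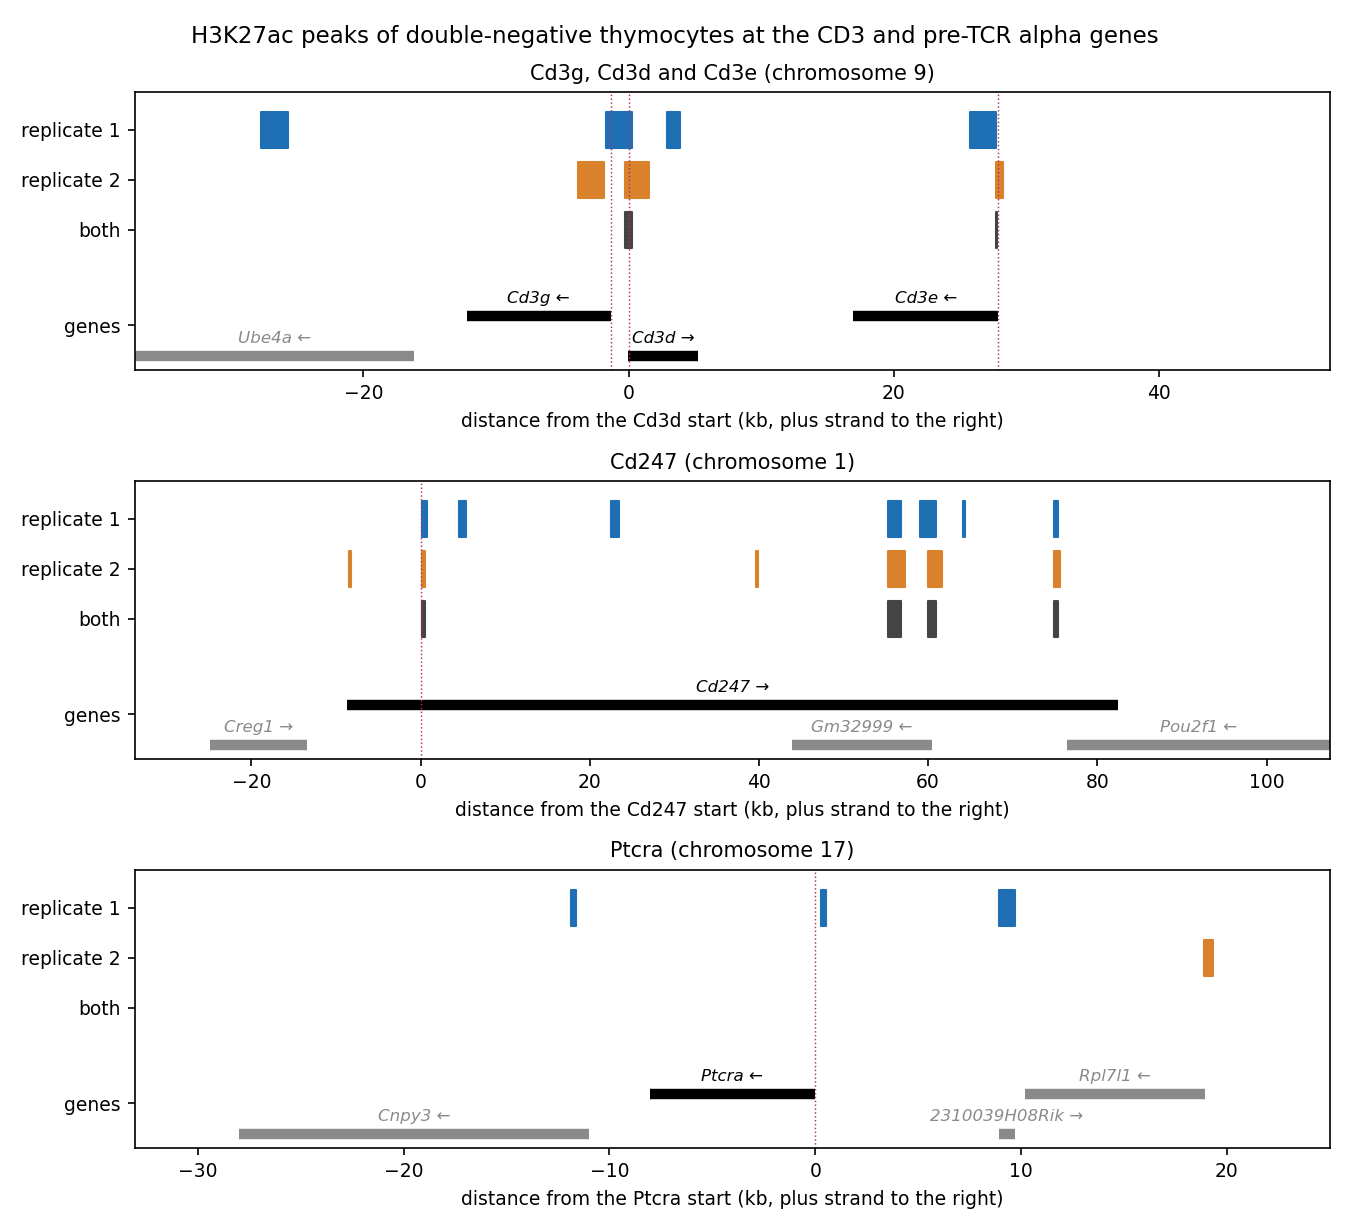
Peaks of each replicate, bp under peaks of both, and genes at the 3 loci with 25 kb on either side, by distance from the start of Cd3d, Cd247 or Ptcra in kb. Arrows give the direction of transcription and dotted lines the starts of the 5 genes. Peaks at the Cd3 genes overlap between replicates by 471 bp and 32 bp only, those at Cd247 coincide at 4 places, and those at Ptcra do not meet. The bar for the 32 bp shared at Cd3e is drawn wider than to scale, at 60 bp.

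Cd247, which encodes CD3 zeta, had the most bp under peaks of both replicates, and nearly all of them lay far inside the gene. Its span (1, 165779952 to 165871153) held 7 peaks in replicate 1 and 6 in replicate 2, and 4 of each overlapped a peak of the other. The first shared region lay next to the start, from 230 bp downstream of it (355 bp, 165788911 to 165789265), so the printed Cd247 window itself lay under no peak. The replicate peaks there were 513 bp and 364 bp wide. The others lay in the downstream part of the gene. The region 55286 bp downstream of the start was 1545 bp wide (165843967 to 165845511), wider than 94% of the 4264 regions shared by the replicates over the genome. The region 59951 bp downstream was 1005 bp wide (165848632 to 165849636) and covered the start of Gm32999, a long noncoding RNA gene on the opposite strand (165832578 to 165849126). The region of 1545 bp also lay inside the span of Gm32999, 3615 bp from its start. The bp of these regions therefore cannot be assigned to Cd247 rather than to Gm32999. The region 74859 bp downstream was 505 bp wide (165863540 to 165864044). Exons and introns were not separated here.

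The remaining peaks of Cd247 had no partner in the other replicate. Replicate 1 had 3, of 894 bp at 4514 bp, 978 bp at 22541 bp and 278 bp at 64092 bp downstream of the start. Replicate 2 had 2 of 229 bp, at 39707 bp downstream and 8184 bp upstream of the start. Widths of 278 bp in replicate 1 and 229 bp in replicate 2 are the narrowest in the lists, shared by 13% and 9.97% of the peaks. The 25 kb on either side of the Cd247 span held no peak of either replicate. Its neighbour Creg1 had no peak at an end in either, and Pou2f1, a gene of the octamer-binding factor Oct-1 whose span overlaps the downstream end of Cd247, had one in both.

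Ptcra had no peak inside the gene (17, 46755663 to 46763712) in either replicate. In replicate 1 a peak of 278 bp lay just upstream of it (46763970 to 46764247), 258 bp upstream of the start at its nearest edge, next to the printed window. This peak had the narrowest width of its list, a fold of 2.85 and a −log10 q of 2.01, and its fold exceeded that of 85.5% of the replicate 1 peaks. Replicate 2 had no peak there. Its single peak within 25 kb was one of 442 bp that overlaps Rpl7l1, a ribosomal protein-like gene (46782589 to 46783030), 18877 bp upstream of the Ptcra start. Replicate 1 also had a peak of 278 bp in Cnpy3, a chaperone gene, and one of 777 bp in 2310039H08Rik. No base within 25 kb of Ptcra lay under peaks of both replicates.

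In covered bp per replicate the Cd3 locus and Cd247 overlapped and Ptcra was low, whereas in bp shared by the replicates Cd247 stood above the Cd3 locus. Over the genes and 25 kb on either side, the Cd3 locus had 6992 bp in replicate 1 and 4275 bp in replicate 2, Cd247 had 6636 bp and 5275 bp, and Ptcra had 1333 bp and 442 bp. The values of the Cd3 locus and Cd247 overlap between replicates, and those of Ptcra lie below both. Under peaks of both replicates were 3410 bp at Cd247, 503 bp at the Cd3 locus and 0 bp at Ptcra. As a share of the bp under a peak of either replicate, these were 40.1%, 4.67% and 0%, against 20.6% over all chromosomes, 19.6% on chromosome 1, 26.1% on chromosome 9 and 22.1% on chromosome 17. Within 1 Mb of the Cd3 locus the share was 13.9%. The windows differ in size, 90.1 kb for the Cd3 locus, 141 kb for Cd247 and 58 kb for Ptcra. Peaks covered 7.76% (replicate 1) and 4.75% (replicate 2) of the Cd3 window, 4.7% and 3.74% of that of Cd247, and 2.3% and 0.761% of that of Ptcra.

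**Figure D3:**
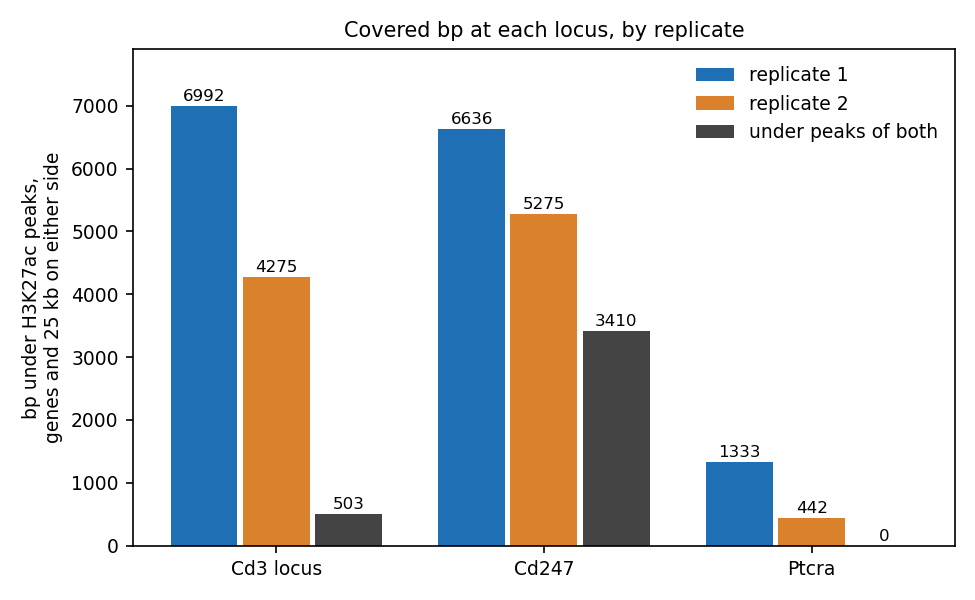
Bars give the bp under H3K27ac peaks of replicate 1, of replicate 2 and of both, over the genes and 25 kb on either side at each locus, from an axis that starts at 0. The Cd3 locus and Cd247 have similar bars per replicate (6992 and 4275 bp, 6636 and 5275 bp), and their shared bp are 503 and 3410.

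Set against all protein-coding genes, each with 25 kb on either side, the CD3 genes ranked high in each replicate. Cd247 had more covered bp than 99.6% of genes in either replicate, and its shared bp exceeded those of 99.5%. These windows grow with the gene. As a share of its window, the shared coverage of Cd247 (2.41%) exceeded that of 96.8% of genes. Inside the gene body alone, shared peaks covered 4.54% of Cd3d (above 95.9% of genes), 3.74% of Cd247 (above 95.2%), 0.293% of Cd3e, and 0% of Cd3g and Ptcra. In all, 101 genes including Cd247 had 3410 shared bp or more, among them its neighbour Pou2f1 with 3745 bp. The 25 kb window of Pou2f1 takes in the downstream shared regions of Cd247, so those bp count for both genes. Cd3g exceeded 99% of genes in replicate 1 and 98.9% in replicate 2, and Cd3d and Cd3e exceeded 99% and 99.3%. Their shared bp, 471 at Cd3g and 503 at Cd3d and Cd3e, exceeded those of only 80.4% and 81.4%. Ptcra exceeded 79.2% in replicate 1 and 64.2% in replicate 2, and like 69.1% of genes it had no shared bp. The median over the 5 genes was 503 shared bp, against 0 over all protein-coding genes, and 30.9% of all genes had any. The windows of Cd3g, Cd3d and Cd3e overlap, so their values are not independent. Of the 4961 bp of Cd3g in replicate 1, 377 bp lay inside Cd3g, and of the 3732 bp in replicate 2, 1921 bp did. The window of the neighbour Ube4a takes in the same peaks as that of Cd3g. With no gene-end peak in either replicate, Ube4a had 5283 bp and 3732 bp, and 471 shared bp. The covered bp of Cd3g, Cd3d and Cd3e rest on peaks with folds of 1.05 to 1.33. Folds under 1.3 made up 31.6% (replicate 1) and 60.5% (replicate 2) of chromosome 9 peaks, against 2.01% and 2.33% of the others. Among chromosome 9 genes alone, Cd3g exceeded 99% in replicate 1 and 99.5% in replicate 2, and Cd3d and Cd3e exceeded 98.8% and 99.8%.

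The peaks of the Cd3 locus were low in fold and small in p, and those of Cd247 were higher in fold and larger in p. The fold enrichment, the −log10 p and the −log10 q of a peak are the authors' own values. Peaks in the Cd3 genes had folds of 1.14 to 1.26 in replicate 1 and 1.05 to 1.20 in replicate 2, above at most 2.72% and 2.91% of the peaks of those replicates. Their −log10 q ran from 5.98 to 6.87 and from 2.65 to 5.67, so each had a q of at most 0.05. The wide peaks over the Cd3g and Cd3d starts and in Cd3e exceeded 95.5% and 96% of the replicate 1 peaks in width. Peaks in Cd247 had folds of 1.43 to 2.21 in replicate 1 and 1.70 to 2.18 in replicate 2. These folds exceeded 5.96% to 54.1% of the replicate 1 peaks and 12.9% to 39.1% of the replicate 2 peaks, so that they too lay mostly below the middle of the lists. Their −log10 q ran from 0.509 to 0.971 and from 0.575 to 1.08, so none had a q of at most 0.05.

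The same difference was found between the chromosomes on which the loci lie. The median fold was 1.44 in replicate 1 and 1.25 in replicate 2 over chromosome 9, 2.19 and 2.37 over chromosome 1, and 2.13 and 2.32 over chromosome 17. The median −log10 q was 9.76 and 8.63 over chromosome 9, 0.775 and 1.07 over chromosome 1, and 0.96 and 1.27 over chromosome 17. Folds below 2 together with a −log10 p of 5 or more were found in 73.6% and 88.6% of the chromosome 9 peaks, in 0% and 0% of those of chromosome 1, and in 12.9% and 12.4% of those of chromosome 17. All 6 peaks in the Cd3 genes have a fold under 2, and 5 of them have such a p. Against chromosome 9 alone, the −log10 p of these peaks exceeded 33.4% to 37.1% of peaks in replicate 1 and 7.53% to 29.1% in replicate 2, below the middle of that chromosome in both. Folds and p-values can therefore not be set side by side between the Cd3 locus and Cd247, and locus and chromosome cannot be told apart in them.

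**Figure D4:**
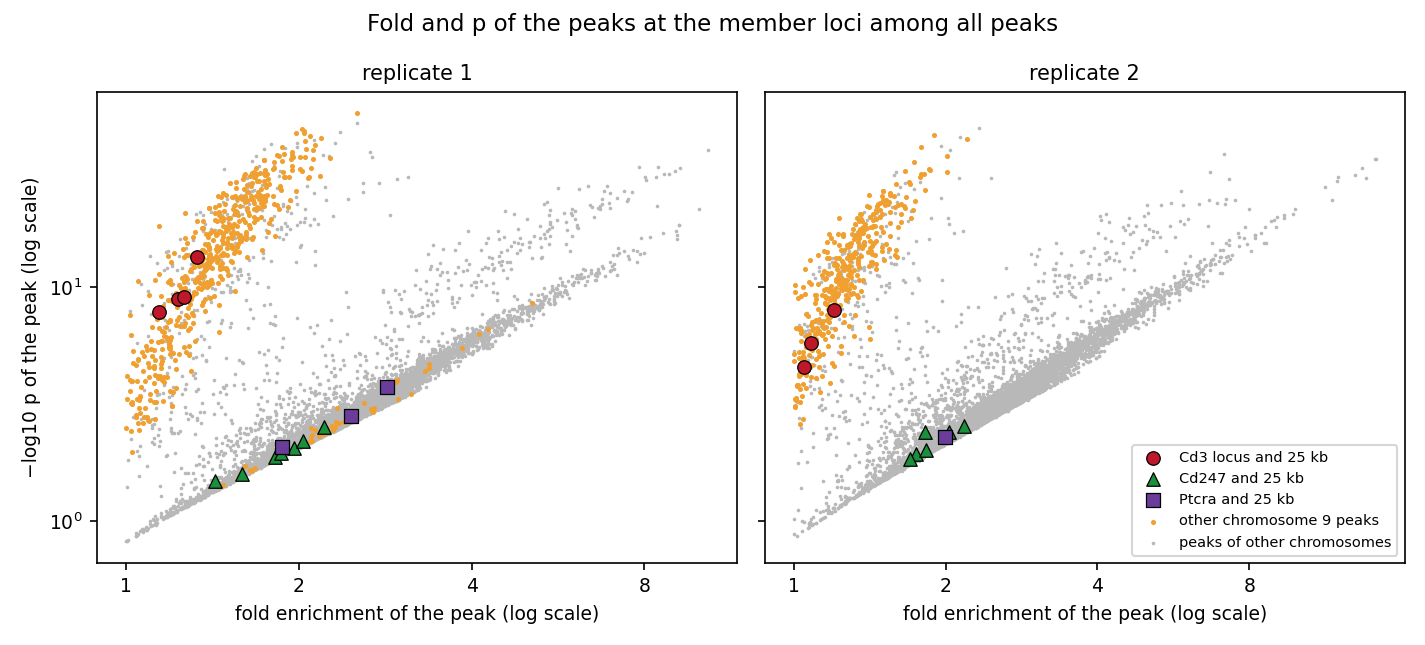
Fold enrichment against −log10 p of each peak, both on log axes, for replicate 1 (left) and replicate 2 (right). Peaks at the Cd3 locus (red circles) lie in the cloud of chromosome 9 peaks (orange), at folds of 1.05 to 1.33, and those at Cd247 (green triangles) and Ptcra (purple squares) on the main band of the other chromosomes.

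The order of the loci in shared bp was the opposite under a limit on q. With peaks of q of at most 0.05, the Cd3 locus kept its 503 shared bp and Cd247 had 0, and 3 of the 5 genes had a gene-end peak in each replicate, beside 2.64% of all genes and 12.9% of chromosome 9 genes. On chromosome 9, 88.3% of the replicate 1 peaks and 99.2% of the replicate 2 peaks pass this limit, against 27.1% and 41% over all chromosomes. With q of at most 1e-05 the Cd3 locus had 32 shared bp and 1 gene, Cd3e, kept its call, beside 0.731% of all genes and 7.74% of chromosome 9 genes. Where the peaks of the replicates had to cover at least 50% of each other, the Cd3 locus had 0 shared bp and Cd247 kept 3410.

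By covered bp at gene ends and within 25 kb in the 2 replicates (Euclidean distance of log10(bp + 100) over these 4 values), the protein-coding genes nearest to Cd3e were Vmp1 (0.0956), Pou2f1 (0.107) and Tubd1 (0.117). The 25 kb window of Pou2f1 takes in the downstream peaks of Cd247, so its likeness to Cd3e rests in part on those. Nearest to Cd247 were Ppp2r5c (0.127), Ankrd12 (0.196) and Dhx37 (0.218). Nearest to Ptcra were Tmem130 (0.0877), Rab11fip4 (0.0984) and Alpk3 (0.103). Ppp2r5c had 6839 bp and 5173 bp within 25 kb, close to the 6636 bp and 5275 bp of Cd247. The genes nearest to Ptcra, which had a single narrow gene-end peak in replicate 1, had 278 to 284 bp at an end in replicate 1 and 0 in replicate 2. All these genes were picked by the values listed, so their likeness follows from the choice.

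The genes whose products join or follow the CD3 chains were read in the same way. The constant regions of the TCR chains, the partners of CD3 in the receptor, had shared peaks at their ends at Tcrb and Tcrg. Trbc1 and Trbc2 of the beta chain had 7849 shared bp in windows that overlap. Trgc2, Trgc1 and Trgc4 of the gamma chain had 4973, 4450 and 3722 bp, and each of these 5 of the 7 listed genes had a gene-end peak in both replicates, beside 16.8% of all protein-coding genes. The 7 are constant regions, not whole genes, and none has a start in the promoter table, so that share is not a like background. Trdc of the delta chain had 284 bp and no gene-end peak. Trac of the alpha chain, the partner that Ptcra stands in for, had 0 shared bp, with 288 bp of a replicate 2 peak within 25 kb, and no gene-end peak in either replicate. The beta and gamma constant genes each exceeded the 3410 bp of Cd247.

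Of 26 genes of pre-TCR and TCR signalling, 5 (19.2%) had a gene-end peak in both replicates, near the 16.8% of all genes. Their median of shared bp was 0, as for all genes. The 5 genes with the most shared bp were Cblb (1052 bp), a ubiquitin ligase that restrains TCR signals, Sos1 (1028 bp), an exchange factor of Ras, Ptpn22 (567 bp), a phosphatase that acts on Lck, Plcg1 (463 bp), the phospholipase C of the pathway, and Grb2 (413 bp), an adapter. All had fewer shared bp than Cd247. Of the 22 genes with a RefSeq start, 6 had a peak there in each replicate, beside 18.2% of all genes with a start. Lck, named after its values were seen, was 1 of them, with 316 shared bp.

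Transcription factors listed as reported at control elements of Ptcra or the Cd3 genes had gene-end peaks in both replicates in 6 of 11 cases (54.5%, beside 16.8% of all genes). The 5 with the most shared bp were Tcf7 (3904 bp), which encodes TCF-1, Ikzf1 (3242 bp), which encodes Ikaros, Tcf3 (2159 bp), which encodes the E protein E2A, Sp1 (1979 bp), a factor of GC-rich promoters, and Myb (1834 bp), a factor of progenitors and early T cells. The median of the listed factors was 1349 bp, against 503 bp for the 5 genes of the CD3 chains and pre-T-cell receptor alpha. Longer genes have larger windows, and gene length was not matched between these lists. The windows of Cd3g, Cd3d and Cd3e also overlap.

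**Figure D5:**
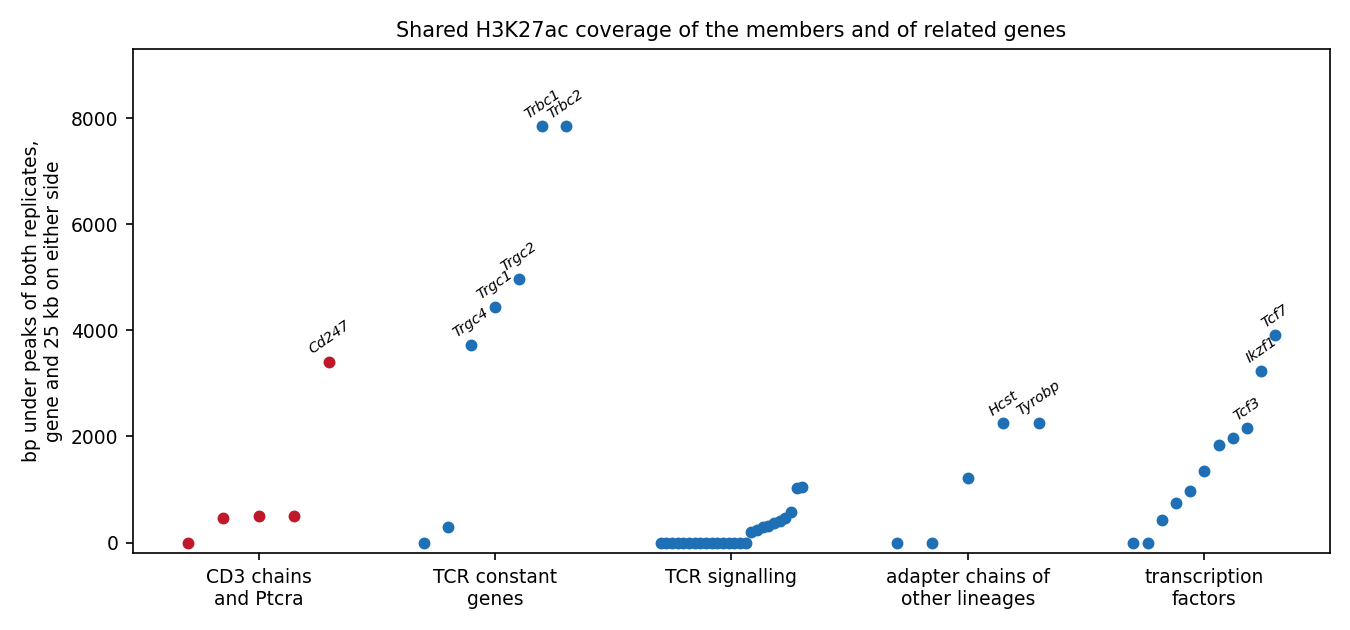
Each point is a gene, with its bp under peaks of both replicates over the gene and 25 kb on either side, for the CD3 chains and Ptcra (red) and 4 related lists (blue), sorted within each list. Genes above 2000 bp, and Cd247, are named. Cd247 stands at 3410 bp and the other 4 members at 0 to 503 bp.

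Over all chromosomes, replicate 1 had 12377 peaks and replicate 2 had 9477, with median widths of 615 bp and 561 bp and median folds of 2.17 and 2.31. Read counts are not in the lists, which leaves the depth unknown. Of 8 markers of double-negative cells, Dntt and Kit had a gene-end peak in both replicates (25%, near the 16.8% of all genes), Il2ra, Thy1 and Ptcra in 1, and Rag1, Rag2 and Notch1 in neither. Of the markers of later thymocytes (6), B cells (5), myeloid cells (4), erythroid cells (3) and stroma (4), none had a gene-end peak in both, and of 4 NK cell markers Nkg7 did. The replicate peaks of Nkg7 had 0 shared bp within 25 kb. Lists this short can hold few called genes at 16.8%. Some of these markers had shared bp within 25 kb, among them Cd79a (1223 bp), Klrb1c (1141 bp) and Cd68 (649 bp). Their part in the results was not tested.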

How the data were processed

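H3K27ac was measured in 2 replicates of sorted double-negative thymocytes. The submitters' processing notes name Bowtie2, the build mm10 and MACS 1.4.2, whereas the deposited lists have a 9-column layout that MACS2 writes. From the peak names (1 library index per list, and rmdup), each list comes from 1 library after removal of duplicates. Neither the cutoff nor the use of the input is given in the sources used here. The deposited lists hold for each peak a fold enrichment (a ratio), a −log10 p and a −log10 q, all by the authors' caller. The score the authors deposited was not used.

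Peaks on assembled chromosomes were read against a RefSeq gene table and promoter windows of GRCm38.p6, with coordinates counted from 1. A gene-end peak lies within 1 kb of either annotated end, and a start peak within 1 kb of a start in the promoter table. Shared bp lie under peaks of both replicates (at least 1 bp). Strand of the promoter letters was checked on 718 overlapping windows of opposite strands, which all matched. Coverage functions were tested on simulated data. No test was made between loci, lists or genes: counts, medians and percentiles are descriptions.

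Genes named were the 5 members, protein-coding genes within 25 kb, all genes of lists of at most 7, the 5 genes of most shared bp in longer lists, and the 3 nearest patterns for each locus. Members and lists were chosen with earlier results of these data known. The motifs, the RefSeq start rule and the CpG comparison were chosen after the data were seen. Alternatives were limits on q, the 10000 peaks of smallest p, either replicate or each alone, stricter overlap, other windows and, after seeing the data, RefSeq starts and joined peaks. Computations used Python 3.11.15, numpy 2.4.6, pandas 2.3.3 and matplotlib 3.10.9.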

Additional observations from a re-analysis of the deposited data

How the results depend on the processing

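No paired analysis was possible because the peak lists form 1 group. The count of members with a gene-end peak in both replicates (3) became 1 with q of at most 1e-05, 5 with a peak in either replicate and 0 where peaks had to overlap by at least 50% of both, and it was 4 with either replicate alone and 4 with RefSeq starts. At the Cd3 locus the 503 shared bp became 10764 bp in either replicate and 4275 to 6992 bp with one replicate left out. The 1.25% of the Cd3 gene span under peaks of both became 20.8% in either, 9.72% to 12.3% with one left out, and 4.95% where peaks within 2 kb of each other were joined, which also gave the locus 1986 shared bp. At Cd247 the 3410 bp became 0 with q of at most 0.05 and 0 with q of at most 1e-05, since none of its peaks passes these limits, 1545 bp with the 10000 peaks of smallest p, 8501 bp in either and 5275 to 6636 bp with one left out. Replicate 2 had 9477 peaks, so the limit of 10000 removed peaks of replicate 1 alone. At Ptcra the 0 bp became 1775 bp in either and 442 to 1333 bp with one left out. The 5 signalling genes became 0 with q of at most 0.05 and 0 with q of at most 1e-05, 3 with overlap of at least 50%, 16 in either and 9 to 12 with one left out. Of all alternative values, 37 stayed within 1.5 times the count or within 1 SD of the replicates, and 24 moved further. Some of the 37 could not have moved. The 0 shared bp at Ptcra could not fall under limits on q, fewer peaks, stricter overlap or a narrower flank. The percent of the Cd3 gene span does not use the gene-end and flank windows, so other windows left it unchanged. The SD rests on 2 values and at the Cd3 locus (1921 bp) exceeds the shared bp itself. Falls there to 32 bp (q of at most 1e-05) and to 0 bp (overlap of at least 50%) therefore counted as staying. Depth is unknown, so an absent peak, as at Ptcra in replicate 2, does not show absent acetylation.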

Other observations

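Adapter chains of receptors of other lineages had 0 of 5 members with a gene-end peak in each replicate (beside 16.8% of all genes). At that share, 0 of 5 is near the background. Shared bp within 25 kb were found at 3 of the 5 (beside 30.9% of all genes). Tyrobp and Hcst, neighbours that encode the adapters DAP12 and DAP10 of natural killer and myeloid receptors, had 2257 bp each in windows that overlap. Cd79a, a chain of the B cell receptor, had 1223 bp. Cd79b, the other chain of that receptor, and Fcer1g, the gamma chain of Fc receptors, had 0 bp.

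Cd247 was not the only gene whose call depended on which end was read. Of the protein-coding genes with a peak of each replicate at a RefSeq start, 335 (10.5%) had none at an annotated gene end in both. Cd3g belongs to 134 genes (3.65% of those called at a gene end) whose replicate peaks share no bp at the gene ends.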
